A study of Mus musculus with 19 samples.

Results

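The machinery that copies DNA, and the enzymes that supply its nucleotides, were followed through 48 genes in sorted cells of mouse skin squamous cell carcinoma (SCC). The genes were chosen by symbol, from origin licensing to replication-coupled chromatin assembly. The authors' deposited table, which holds 1609 genes, has a row for 45 of them, and Gins4, Orc1 and Pold2 had none, so their direction is not known here. The sources used here do not give the rule by which a gene entered that table. A member with a row had therefore already passed a selection that may have favoured genes that differ, and the counts below describe these rows only.

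The tumours were allografts of C57BL/6 SCC cells, grown in skin from 10000 cells injected intradermally. Sorting used CD71 (the product of Tfrc, which takes up iron-loaded transferrin) and H2B-GFP, a histone label that is diluted as a cell divides. Quiescent cells were CD71lo H2BGFPhi, double negative cells were CD71lo H2BGFPlo, and proliferative cells were CD71hi H2BGFPlo. RNA was sequenced from 100000 sorted cells of each of these 3 populations in each of 2 tumours, SCC1 and SCC2, which makes 6 libraries. Open chromatin was profiled by ATAC-seq, which marks DNA that a transposase can reach, in 50000 cells per library. Those libraries came from the same 3 populations and CD71hi H2BGFPhi cells of both tumours, and from 2 libraries of a Tgfbr2KO tumour, SCC3. Smad2/3 ChIP-seq used cultured SCC1 cells in 50 uM calcium, treated with 5 ng/mL TGFβ1 for 1 h, with input DNA of SCC1 and SCC2. No genotype is given for SCC1 and SCC2, the labels do not say which cells carry the H2B-GFP transgene or what drives it, and the labels name no other treatment.

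Each origin of replication is licensed before S phase, when the origin recognition complex, Cdc6 and Cdt1 load the MCM2-7 ring onto DNA. The kinase Cdc7 with Dbf4, Mcm10, Cdc45 and the GINS complex then turn that ring into a moving helicase, and the polymerases, the sliding clamp and its loaders follow. Many of these genes are transcribed under E2F factors, which RB-family proteins hold in check in cells that do not divide. In skin, the transit from resting to cycling keratinocytes is accompanied by expression of this set, and TGFβ is known as a signal that restrains it.

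Promoters were searched for E2F words because many of these genes are known E2F targets. The words were TTTCCCGC, TTTGGCGC, TTTCGCGC and TTTGCCGC on both strands, in the window from 250 bases before to 50 bases after each start in the RefSeq promoter table (GRCm38.p6). A window was found for 37 of the 45 members. The 4 promoters shown are those in which an E2F word lies before the start and outside the annotated span of the gene. They belong to subunits of the helicase (Mcm5 and Mcm6), of the GINS complex (Gins3) and of the clamp loader (Rfc3). Each is written 5′ to 3′ on the strand of its gene, and capitals mark the E2F words. Mcm5 is on the plus strand at chr8:75109259-75109467, Mcm6 on the minus strand at chr1:128359706-128359955, Gins3 on the plus strand at chr8:95633309-95633558, and Rfc3 on the minus strand at chr5:151651209-151651458.
Mcm5: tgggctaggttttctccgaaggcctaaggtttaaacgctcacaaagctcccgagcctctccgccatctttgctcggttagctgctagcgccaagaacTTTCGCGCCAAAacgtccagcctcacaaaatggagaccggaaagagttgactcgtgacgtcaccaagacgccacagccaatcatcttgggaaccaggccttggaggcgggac
Mcm6: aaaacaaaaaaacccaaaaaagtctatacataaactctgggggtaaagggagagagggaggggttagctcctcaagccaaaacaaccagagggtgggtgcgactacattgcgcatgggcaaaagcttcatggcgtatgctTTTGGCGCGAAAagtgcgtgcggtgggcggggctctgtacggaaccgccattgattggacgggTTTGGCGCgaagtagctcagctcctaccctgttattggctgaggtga
Gins3: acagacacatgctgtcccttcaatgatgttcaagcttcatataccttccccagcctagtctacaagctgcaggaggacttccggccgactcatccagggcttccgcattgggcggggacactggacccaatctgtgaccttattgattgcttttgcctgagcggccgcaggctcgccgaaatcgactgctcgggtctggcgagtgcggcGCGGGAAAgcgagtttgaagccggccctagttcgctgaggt
Rfc3: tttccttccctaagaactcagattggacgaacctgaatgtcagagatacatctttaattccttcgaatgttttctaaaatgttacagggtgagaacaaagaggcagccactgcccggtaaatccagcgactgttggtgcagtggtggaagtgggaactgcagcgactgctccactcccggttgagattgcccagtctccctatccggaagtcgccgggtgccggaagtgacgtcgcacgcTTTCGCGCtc
In Mcm5 and in the distal run of Mcm6 the capitals cover 2 words that overlap on opposite strands. A second Mcm6 word stands nearer the start, at -47, and the Rfc3 word begins at -10, counted in bases from the start. All 4 windows overlapped an ATAC peak.

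An E2F word was found in 15 of the 37 members (40.5%), against 83 of the 1106 other genes of the table with a window (7.5%) and 704 of 27025 genes (2.6%). The 15 were Cdc6 and Cdt1 in licensing, Mcm3, Mcm5, Mcm6 and Mcm7 in the helicase, Gins3 and Mcm8, Pola1, Pold1 and Pole2 among the polymerases, Rfc3, Lig1, Uhrf1 and Dnmt1. In 9 of them a word lay before the start, and in Mcm3, Pole2, Lig1, Mcm8, Pold1 and Cdt1 it reached past the start only. CCAAT, the letters bound by NF-Y, was present in 22 members (59.5%), against 48.6% of the other table genes and 41.1% of all genes. TTTGAA or TTCGAA, the words of the CHR element known from late cell-cycle promoters, were present in 9 members (24.3%), against 22.1% of the other table genes and 21.7% of all genes. Among 45 mitosis genes with a window the order was the reverse, with E2F words in 5 (11.1%) and CHR words in 35 (77.8%), and CCAAT in 31 (68.9%). Counted before the start only, CHR words were in 8 members (21.6%) and 19 mitosis genes (42.2%). The other table genes stood there at 17.5% and all genes at 19.6%. E2F words before the start were in 9 members (24.3%) and 4 mitosis genes (8.89%), against 6.51% of the other table genes and 2.16% of all genes. The members' shares of both words were thus close, but only their CHR share was near that of other genes. The median G+C content of the windows was 61.3% for the members, 59.7% for the other table genes and 52.7% for all genes, and its part in these shares was not tested. A match describes letters in the window and is not evidence of binding.

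**Figure D1:**
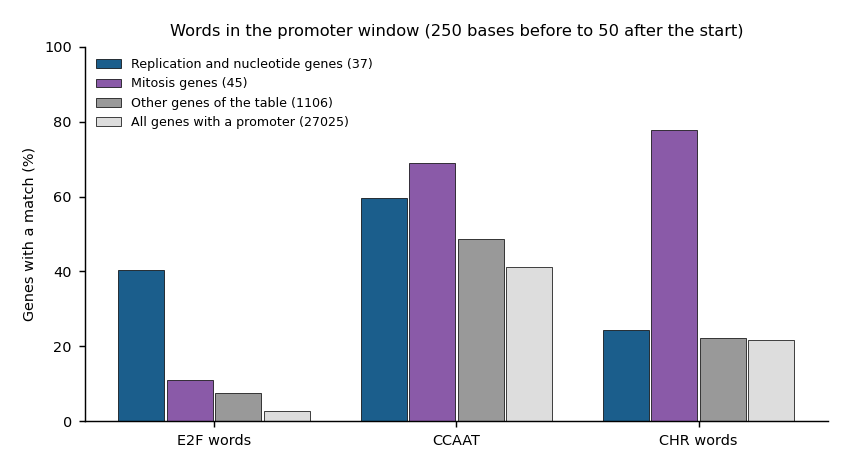
Share of genes (%, y axis) whose promoter window holds an E2F, CCAAT or CHR word (x axis), for the 37 members with a window, 45 mitosis genes, 1106 other genes of the table and 27025 genes. E2F words stand at 40.5% in the members and 11.1% in the mitosis genes, and CHR words at 24.3% and 77.8%.

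In quiescent cells every one of the 45 members was lower than in proliferative cells, in both tumours, in the authors' deposited table. The lower sign in both tumours was shared by 52.3% of all genes of the table. Across members the authors' deposited table gave a median log2 ratio of -2.12 (SCC1) and -1.30 (SCC2), against -0.61 and -0.49 over all its genes. Taken out of logs, the median member stood in quiescent cells at 22.9% of its proliferative value in SCC1 and 40.7% in SCC2, from ratios of the authors' deposited table. With a ratio of -1 or lower required in both tumours 31 members were left, where 23.3% of all genes of the table met the same rule. With 1 library per population and tumour, and a table that gives neither levels nor q-values, no test was run, the depth is unknown, and the 2 tumours are the only replicates. In sorted bulk RNA, fewer cycling cells and less RNA per cell cannot be told apart. Tfrc, which encodes the CD71 used in the sort, had log2 ratios of -1.72 and -1.55 in the authors' deposited table.

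**Figure D2:**
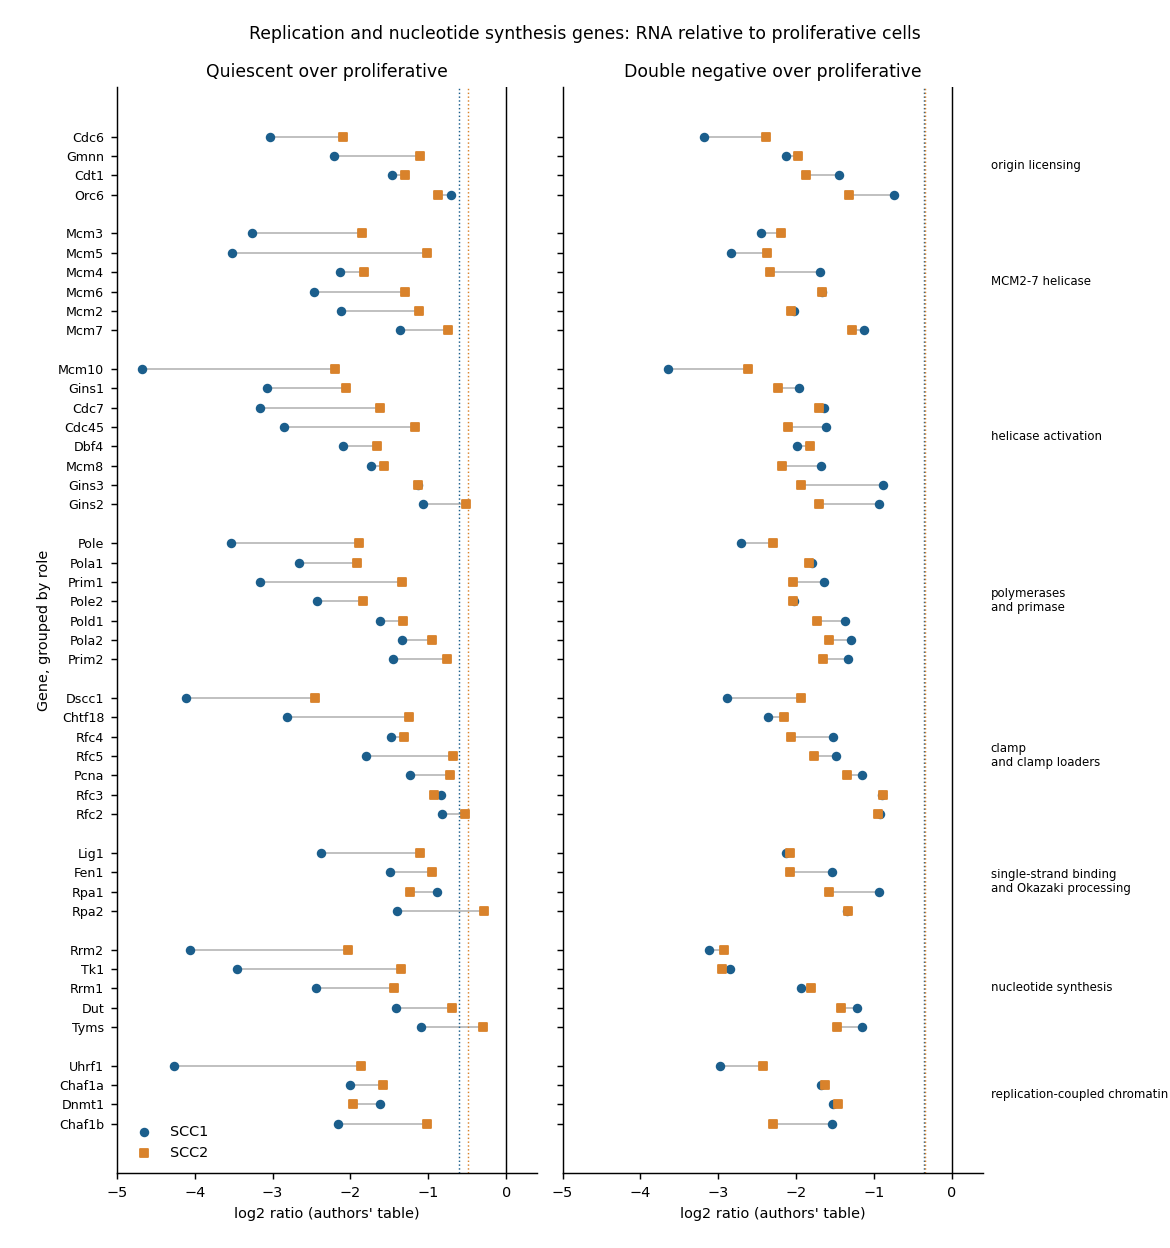
Log2 ratios (x axis) of the 45 members (y axis, grouped by role), quiescent over proliferative on the left and double negative over proliferative on the right, with SCC1 as circles, SCC2 as squares and dotted lines at the table's median in each tumour. All points lie below 0; on the left most SCC1 points lie further down than their SCC2 partners.

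For origin licensing genes the authors' deposited table gave median ratios, quiescent over proliferative, of -1.84 (SCC1) and -1.20 (SCC2). Cdc6, the ATPase that helps load MCM2-7, had log2 ratios of -3.03 in SCC1 and -2.09 in SCC2 per the authors' deposited table, the lowest of the 4. Orc6, a subunit of the origin recognition complex, had -0.71 and -0.88 per the authors' deposited table. Cdt1, the MCM loading partner, stood at -1.47 and -1.30 per the authors' deposited table. Gmnn (geminin), which blocks Cdt1 after licensing, stood at -2.21 and -1.11 per the authors' deposited table. Activators and the inhibitor of licensing were thus all lower in quiescent cells.

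The 6 subunits of the MCM2-7 ring had medians of -2.30 and -1.21 per the authors' deposited table, quiescent over proliferative in SCC1 and SCC2. They assemble as a single hexamer, yet their ratios were spread: Mcm3 had -3.27 and -1.85, and Mcm7 had -1.37 and -0.75 per the authors' deposited table. Mcm5 lay furthest apart between the tumours of any member, at -3.52 in SCC1 and -1.02 in SCC2 per the authors' deposited table. Mcm4 was nearly alike in both, at -2.13 and -1.83 per the authors' deposited table. Mcm2 and Mcm6 lay between these, with SCC1 ratios of -2.12 and -2.47 and SCC2 ratios of -1.12 and -1.30 per the authors' deposited table.

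Helicase activation held the lowest SCC1 ratio of the set. Mcm10, a scaffold that helps start unwinding, had log2 ratios of -4.68 and -2.20 per the authors' deposited table, quiescent over proliferative, and stood at 3.89% of its proliferative value in SCC1 and 21.7% in SCC2. Gins2 had -1.07 and -0.51 per the authors' deposited table. Its partners in the GINS complex were lower or like it: Gins1 stood at -3.07 and -2.06 and Gins3 at -1.14 and -1.14 per the authors' deposited table. The kinase pair had -3.16 and -1.62 for the catalytic subunit Cdc7 and -2.09 and -1.66 for its activator Dbf4 per the authors' deposited table. Cdc45, the helicase cofactor, stood at -2.85 and -1.17 per the authors' deposited table. Mcm8, an MCM relative known for its role in homologous recombination, stood at -1.73 and -1.57 per the authors' deposited table.

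For polymerase and primase genes the medians were -2.42 and -1.34 per the authors' deposited table. Pole, the catalytic subunit of the leading-strand polymerase epsilon, had the lowest mean of the group, with log2 ratios of -3.54 and -1.89 per the authors' deposited table. Its partner Pole2 had -2.42 and -1.85 per the authors' deposited table. The 4 genes of the polymerase alpha-primase complex, which lays the primers, differed among themselves. Pola1 had -2.66 and -1.91 and Prim1 had -3.16 and -1.34, while Pola2 had -1.34 and -0.96 and Prim2 had -1.46 and -0.77 per the authors' deposited table. Pold1, the catalytic subunit of the lagging-strand polymerase delta, stood at -1.62 and -1.32 per the authors' deposited table.

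The clamp Pcna had log2 ratios of -1.23 and -0.72, quiescent over proliferative per the authors' deposited table. Subunits of the general clamp loader stood near it, with Rfc2 at -0.82 and -0.52, Rfc3 at -0.83 and -0.93, Rfc4 at -1.48 and -1.32 and Rfc5 at -1.81 and -0.68 per the authors' deposited table. The subunits of the alternative loader, which is known for sister chromatid cohesion, were lower than these in SCC1. In SCC2 this held for Dscc1 only, and Chtf18 stood just above Rfc4. Dscc1 had -4.11 and -2.46 and Chtf18 had -2.81 and -1.25 per the authors' deposited table, and Dscc1 was the lowest of all 45 members in SCC2.

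For single-strand binding and Okazaki fragment genes the medians were -1.45 and -1.03 per the authors' deposited table. Lig1, the ligase that joins Okazaki fragments, had -2.38 and -1.11 per the authors' deposited table. Fen1, the flap nuclease that trims them, had -1.50 and -0.96 per the authors' deposited table. The subunits of the single-strand binding protein RPA were ordered differently in the tumours, with Rpa1 at -0.89 in SCC1 and -1.24 in SCC2 and Rpa2 at -1.40 in SCC1 and -0.29 in SCC2 per the authors' deposited table. The Rpa2 ratio in SCC2 was the closest to 0 of the set.

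Nucleotide synthesis genes covered nearly the whole range. Rrm2, the S-phase subunit of ribonucleotide reductase, had log2 ratios of -4.07 and -2.04 per the authors' deposited table. Its large subunit Rrm1 had -2.45 and -1.44 per the authors' deposited table. Tk1, the thymidine salvage kinase, had -3.46 and -1.35, and Tyms, which makes the same product by the de novo route, had -1.10 and -0.30 per the authors' deposited table. Dut, which removes dUTP, had -1.42 and -0.70 per the authors' deposited table.

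Among the replication-coupled chromatin genes, Uhrf1, which brings the maintenance methyltransferase to newly copied DNA, had -4.27 and -1.86 per the authors' deposited table. That methyltransferase, Dnmt1, had -1.62 and -1.96 and so was lower in SCC2 per the authors' deposited table. The subunits of the histone chaperone CAF-1 stood at -2.00 and -1.58 for Chaf1a and -2.16 and -1.01 for Chaf1b per the authors' deposited table.

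Most members were further down in SCC1 than in SCC2. This was so for 41 of 45, with a median difference of -0.80 between the log2 ratios of SCC1 and SCC2 per the authors' deposited table, where 61.8% of all genes had the same order. The 4 exceptions were Orc6, Rfc3, Rpa1 and Dnmt1. Across the 45 members the SCC1 and SCC2 ratios were correlated at a Pearson r of 0.72 and a Spearman rho of 0.74, given as a description, since genes are not independent replicates and all members share 2 libraries per tumour.

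Double negative cells, low for both labels, were also lower than proliferative cells at all 45 members in both tumours per the authors' deposited table. The same sign was found for 50.9% of all genes of the table. Members had median log2 ratios of -1.64 in SCC1 and -1.93 in SCC2 per the authors' deposited table, against -0.35 and -0.34 over all its genes, and the median member stood at 32.1% and 26.2% of its proliferative value. At -1 or lower in both tumours 39 members were counted, where 25.2% of all genes of the table met that rule. This comparison has the same proliferative libraries as the one above, so the shared direction is not a second observation.

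Rrm2 and Tk1 were the lowest in SCC2, with log2 ratios of -2.92 and -2.95, and stood at -3.11 and -2.84 in SCC1, double negative over proliferative per the authors' deposited table. Mcm10 had -3.64 in SCC1 and -2.62 in SCC2, and Cdc6 had -3.18 in SCC1 and -2.38 in SCC2 per the authors' deposited table. Uhrf1 had -2.98 and -2.43, Mcm3 -2.45 and -2.20, and Pole -2.71 and -2.30 per the authors' deposited table. In SCC2 the genes nearest to 0 were Rfc3, Rfc2 and Mcm7, followed by Orc6. Orc6 had -0.74 and -1.32, Rfc2 had -0.91 and -0.95, and Rfc3 had -0.90 and -0.88 per the authors' deposited table. Tyms, at -1.15 and -1.47, and Rpa2, at -1.35 and -1.33, were both below -1 in double negative cells of each tumour per the authors' deposited table. Mcm7 had -1.12 and -1.28, Gins2 had -0.93 and -1.71, and Prim2 had -1.33 and -1.66 per the authors' deposited table. Lig1, at -2.12 and -2.08, and Chaf1b, at -1.54 and -2.30, were further down than these in both tumours per the authors' deposited table. Of the 45 members 18 were further down in SCC1 than in SCC2, against 45.6% of all genes, with a median difference of 0.07 in the log2 ratio of the authors' deposited table. The SCC1 and SCC2 ratios of the members were correlated at r 0.80 and rho 0.81, again as a description over 45 genes.

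Set directly against each other, quiescent and double negative cells were ordered oppositely in the 2 tumours. The median log2 ratio of the members, quiescent over double negative, was -0.30 in SCC1 and 0.54 in SCC2 per the authors' deposited table, against -0.23 and 0.13 over all its genes. A lower value in SCC1 with a higher one in SCC2 was found for 36 of 45 members (80%), and for 40.8% of all genes of the table. A lower value in both tumours was found for 3 members, against 30.0% of all genes, and a higher one in both for 5, against 16.3%. Rfc3 alone had the opposite pair of signs, 0.03 in SCC1 and -0.07 in SCC2 per the authors' deposited table. At -1 or lower in both tumours no member was left, where 2.30% of all genes of the table were. Whether the tumours differ here was not tested, and these ratios are not independent of the 2 sets above, since within a tumour they added up to within 0.1 for all 45 members.

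**Figure D3:**
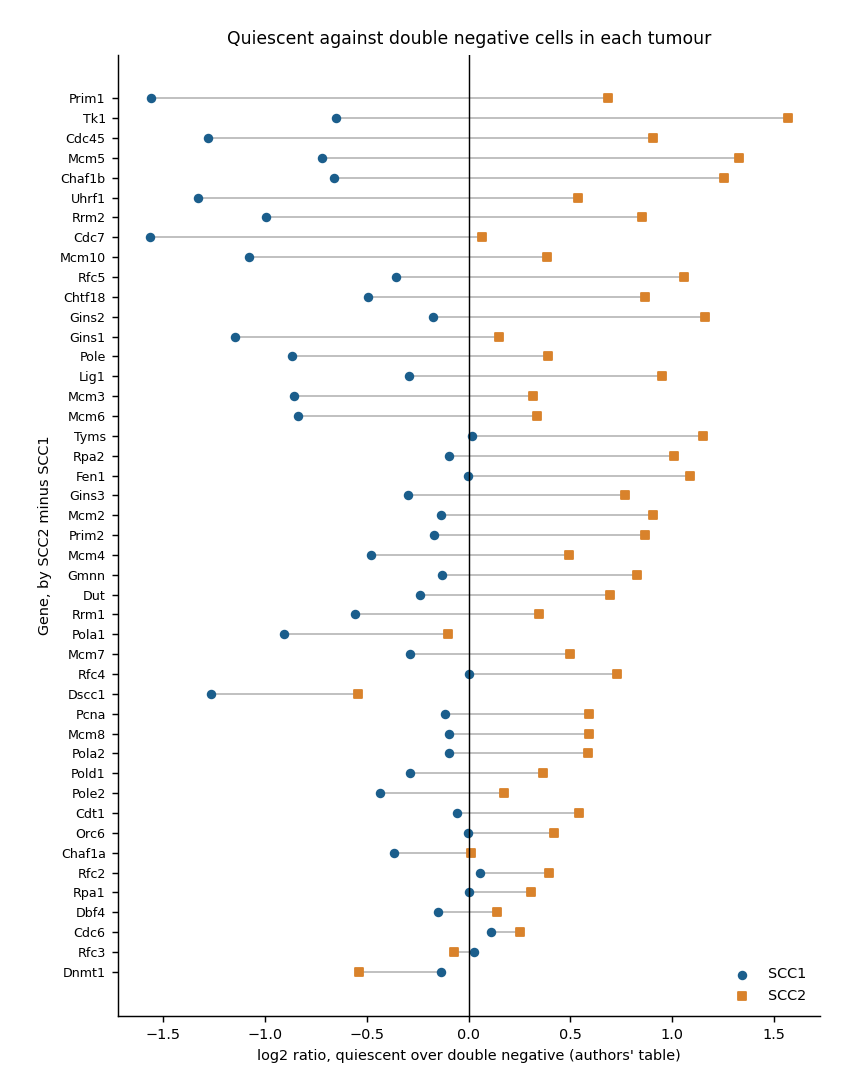
Log2 ratio of quiescent over double negative cells (x axis) for each of the 45 members (y axis), ordered by the difference between the tumours, with SCC1 as circles and SCC2 as squares. For 36 members the pair straddles 0, SCC1 below and SCC2 above.

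The 3 members lower in both tumours were Dscc1, Pola1 and Dnmt1. Dscc1 had log2 ratios of -1.27 and -0.55, Pola1 of -0.90 and -0.10, and Dnmt1 of -0.13 and -0.54, quiescent over double negative in SCC1 and SCC2 per the authors' deposited table. The 5 higher in both were Cdc6, Rfc2, Rfc4, Rpa1 and Tyms. Cdc6 had 0.11 and 0.25, Rfc2 had 0.06 and 0.39, and Tyms had 0.02 and 1.15 per the authors' deposited table. Rfc4, at 0.00 in SCC1 and 0.73 in SCC2, and Rpa1, at 0.00 and 0.31, were higher in SCC1 by less than 0.01 per the authors' deposited table, so their sign there rests on a very small value. Their double negative over proliferative ratios not yet given were -2.88 and -1.94 for Dscc1, -1.80 and -1.83 for Pola1, -1.53 and -1.46 for Dnmt1, -1.52 and -2.06 for Rfc4, and -0.93 and -1.57 for Rpa1 per the authors' deposited table.

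The pairs that lay furthest apart were Prim1, at -1.56 in SCC1 and 0.69 in SCC2, and Tk1, at -0.65 and 1.57 per the authors' deposited table. Cdc45 followed with -1.28 and 0.91, and Mcm5 with -0.72 and 1.33 per the authors' deposited table. Chaf1b had -0.66 and 1.25, Uhrf1 had -1.33 and 0.53, and Rrm2 had -0.99 and 0.85 per the authors' deposited table. In Mcm10, with -1.08 and 0.39, Pole, with -0.87 and 0.39, and Mcm3, with -0.86 and 0.32, the distance from 0 lay mostly in SCC1 per the authors' deposited table. Gins2 had -0.18 and 1.16, Lig1 had -0.30 and 0.95, and Rpa2 had -0.10 and 1.01, so that the distance from 0 lay mostly in SCC2, per the authors' deposited table. Prim2 had -0.17 and 0.86, Mcm7 had -0.29 and 0.50, and Orc6 had -0.00 and 0.42 per the authors' deposited table. Orc6 and Fen1 each stood at -0.003 in SCC1, so their sign there rests on a very small value too. By role, the medians in SCC1 were lowest for helicase activation, at -0.69, and nearest to 0 for licensing, at -0.03 per the authors' deposited table. In SCC2 they were highest for the RPA and Okazaki genes, at 0.98, and lowest for the chromatin genes, at 0.27 per the authors' deposited table.

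Fibroblast and immune markers had the same opposite order. Of 14 fibroblast markers 11 had a row, and their median log2 ratio, quiescent over double negative, was -2.69 in SCC1 and 3.11 in SCC2 per the authors' deposited table. Quiescent over proliferative it was 0.08 and 4.42, and double negative over proliferative 2.71 and 1.24 per the authors' deposited table. Of 16 immune markers 8 had a row, at -1.59 and 2.30 quiescent over double negative and at -0.34 and 2.95 quiescent over proliferative per the authors' deposited table. Double negative over proliferative the immune medians were 1.24 and 0.68 per the authors' deposited table. Among 9 endothelial markers 2 had a row, with medians of -5.85 and -1.30 quiescent over double negative per the authors' deposited table. Their medians were 5.09 and 3.08 double negative over proliferative, and -0.72 and 1.82 quiescent over proliferative, in SCC1 and SCC2. The table gives no levels, so neither the summed level of a marker list nor a marker at 0 can be given, and the part of these cells in the members' ratios was not tested. Of 16 markers of squamous keratinocytes, the cell type that the tumour label SCC implies, 3 had a row. Krt6b had -3.71 and 3.22, Krt16 had -1.13 and 0.79, and Epcam had -3.21 and -0.40, quiescent over proliferative in SCC1 and SCC2 per the authors' deposited table. The tumour label could not be checked further from ratios.

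Other genes of the same pathways were mostly lower in quiescent than in proliferative cells too. Of 39 further replication genes 17 had a row and all 17 were lower in quiescent than in proliferative cells in both tumours, with medians of -1.63 and -1.35 per the authors' deposited table. They included Clspn, the checkpoint mediator at the fork, at -4.74 and -1.20, and Top2a, which untangles copied DNA, at -5.59 and -2.21 per the authors' deposited table. Of 30 further nucleotide synthesis genes 13 had a row and 12 were lower in both tumours, with medians of -1.08 and -0.87 per the authors' deposited table. The exception, Samhd1, breaks dNTPs down, and had -0.13 in SCC1 and 1.35 in SCC2 quiescent over proliferative, and -0.06 and 1.52 double negative over proliferative per the authors' deposited table. The lower sign in both tumours was shared by 52.3% of all genes of the table. At -1 or lower in both tumours were 11 of the 17 (64.7%) but 2 of the 13 (15.4%), against 23.3% of all genes. Quiescent over double negative, 9 of the 17 (52.9%) and 6 of the 13 (46.2%) were lower in SCC1 and higher in SCC2. That order was found for 40.8% of all genes.

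Of 21 regulators of S phase entry 11 had a row, and all 11 were lower in both tumours, with medians of -1.88 and -1.40 per the authors' deposited table. That sign, quiescent over proliferative, was shared by 52.3% of all genes of the table. The activator E2f1 had -0.59 and -1.13 and the repressor E2f8 had -3.69 and -1.98 per the authors' deposited table. Ccne1, the cyclin E that drives the start of S phase, had -2.83 and -0.78, and Ccnd1, cyclin D1, had -0.62 and -1.30 per the authors' deposited table. Cdkn2c, an inhibitor of the cyclin D kinases, was lower too, at -1.64 and -1.46 per the authors' deposited table.

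The medians of the mitosis genes lay further down than those of the replication genes in each of the 4 comparisons with proliferative cells. All 56 listed had a row and were lower in both tumours, with medians of -4.46 and -1.73 quiescent over proliferative and -3.37 and -3.13 double negative over proliferative per the authors' deposited table. That sign was shared by 52.3% of all genes of the table quiescent over proliferative, and by 50.9% double negative over proliferative. Their opposite order between tumours was also wider, at -1.06 (SCC1) and 1.23 (SCC2) for the quiescent over double negative medians per the authors' deposited table. A lower value in SCC1 with a higher one in SCC2 was found for 51 of the 56 (91.1%), and for 40.8% of all genes of the table. The difference between the lists was not tested. The lists were chosen with earlier results of these data known, and every mitosis gene had a row. How far that choice set the values of the mitosis genes is not known.

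**Figure D4:**
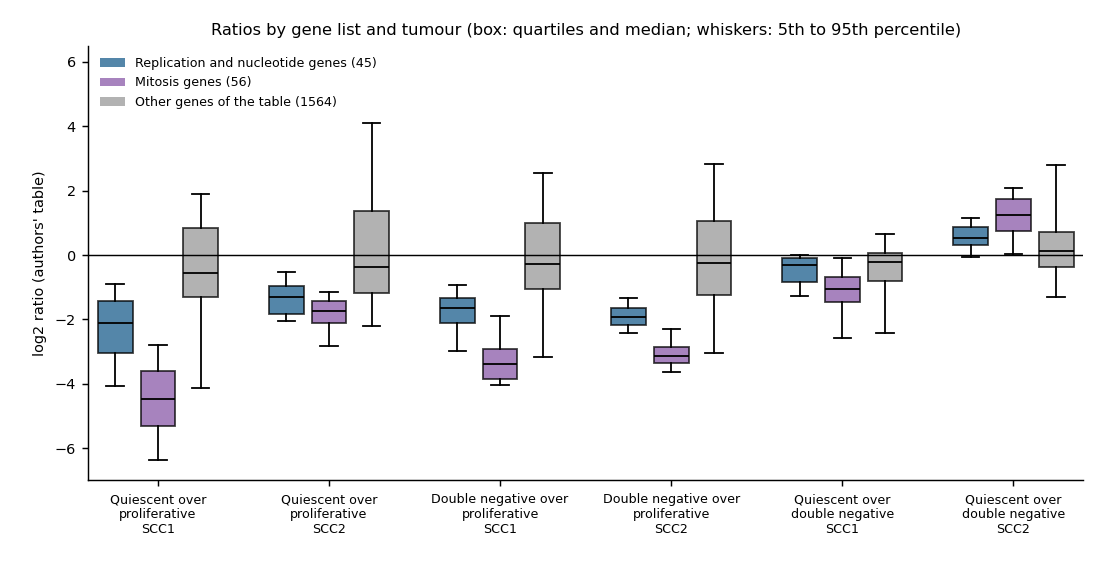
Log2 ratios (y axis) of the 45 replication and nucleotide genes, 56 mitosis genes and 1564 other genes of the table, which include the mitosis genes, in each of the 3 comparisons and 2 tumours (x axis), as boxes of the quartiles and median with whiskers from the 5th to the 95th percentile. The replication genes have medians between those of the mitosis genes and the rest, and in the SCC1 comparison of quiescent with double negative cells their median of -0.30 is close to the -0.23 of the other genes.

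Chromatin at the members was open in the pooled ATAC list, which merges 61553 peaks of 300 to 2300 bp without a score and does not separate the populations. A peak lay within 10 kb of the gene in 45 of 45 members, in 93.9% of the table's genes and in 70.5% of other protein-coding genes. The members had a median of 3 peaks, from 1 to 10. Over the promoter window itself a peak was found in 33 of the 37 members with a window (89.2%), in 78.5% of the table's genes and in 37.7% of all genes. Pola2, Prim1, Tk1 and Tyms had none there.

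Smad2/3, the factors that carry the TGFβ signal to DNA, had a site within 10 kb of 11 members (24.4%), against 21.4% of the table's genes and 14.9% of other protein-coding genes. The list of 6143 sites of 201 bp comes from 1 ChIP library of cultured SCC1 cells and has no score. It is labelled as bound sites with a motif, so sites bound without one may be missing from it. The 11 were Cdc45, Cdc6, Cdt1, Chtf18, Dnmt1, Fen1, Lig1, Mcm7, Pola2, Rrm1 and Tk1, with 17 sites, of which 12 overlapped an ATAC peak. In 4 the centre lay within 1 kb of a start: Cdc45, 411 bases past it (chr16:18811461-18811661), Rrm1, 293 bases past it (chr7:102441888-102442088), Mcm7, 250 bases past it (chr5:138170916-138171116), and Fen1, at -135 (chr19:10203956-10204156). All 4 were inside the annotated gene and in an ATAC peak. Cdt1 had 3 sites and Fen1 had 3, Rrm1 and Tk1 had 2 each, and the remaining 7 genes had 1 each. Median log2 ratios quiescent over proliferative were -2.38 and -1.25 for the 11 with a site and -2.11 and -1.31 for the 34 without per the authors' deposited table, and ranges of both groups overlap.

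**Figure D5:**
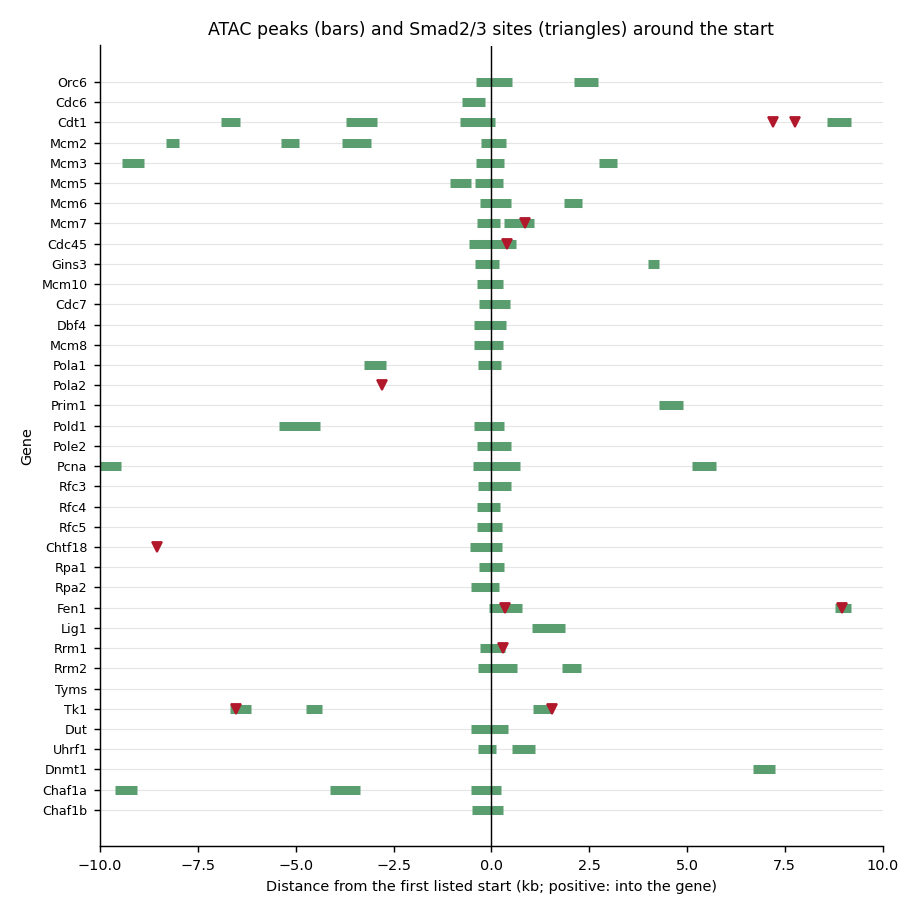
ATAC peaks (bars) and centres of Smad2/3 sites (triangles) within 10 kb of the first listed start (x axis, kb, positive into the gene) of the 37 members with a listed start (y axis). Most genes carry a bar across 0; the Mcm7 and Fen1 triangles appear further from 0 than the distances in the text, which are counted from the nearest of 2 listed starts.

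Copy number was called by the authors from input DNA of each tumour. A gain covered 22 of 45 members in SCC1 and 23 in SCC2, against 45.1% and 44.1% of the table's genes. No member lay in a loss, but losses covered only 1.56% of the table's genes in SCC1 and 1.5% in SCC2. Their absence among 45 members is therefore not informative. In SCC1 17 members were at 3 copies and 5 at 4, and in SCC2 21 were at 3 and 2 at 4. Prim1, on chromosome 10, was at 4 copies in both tumours, and Cdc6, Lig1, Mcm4 and Rpa1 were at 4 copies in SCC1 and 3 in SCC2. Gains in both tumours covered 18 members, in SCC1 only 4, in SCC2 only 5, and 18 had no call. Median log2 ratios quiescent over proliferative were -2.17 for members in a gain and -2.09 for those with no call in SCC1, and -1.24 and -1.31 in SCC2 per the authors' deposited table. The input came from cultured cells and not from the sorted populations, so copy number was not compared between populations.

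The authors listed 656 expressed nonsynonymous mutations in 540 genes, and 344 of these mutations were listed in both SCC1 and SCC2. Presence in both tumours was thus common. Of the 656, 2 fell in members, both seen in quiescent and proliferative cells of SCC1 and in proliferative cells of SCC2. Quiescent SCC2 cells had 95 mutations listed, against 411 in proliferative SCC2 cells, so their absence there is not informative. In Dbf4 the change is L239M in exon 9, at position 8403706 of chromosome 5 (mm10). Its alternative base made up 54% of 37 reads in quiescent SCC1 cells (95% exact binomial interval 36.9 to 70.5%), against 69% of 113 reads in proliferative SCC1 cells (59.6 to 77.4%), and 31% of 109 reads in proliferative SCC2 cells (22.7 to 40.8%). The intervals of the SCC1 populations overlap, and that of proliferative SCC2 cells lies below that of proliferative SCC1 cells. In Rrm1 the change is R648L in exon 17, at position 102465755 of chromosome 7. There the alternative base made up 82% of 28 reads in quiescent SCC1 cells (63.1 to 93.9%), against 70% of 148 reads in proliferative SCC1 cells (62.2 to 77.5%), and 75% of 164 reads in proliferative SCC2 cells (67.7 to 81.4%), and all 3 intervals overlap. The intervals take the reads from the authors' whole percent and the depth. Reads are not independent molecules, and the intervals cover counting error only.

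The read depth at these sites comes from the same libraries as the table of ratios, so it is not an independent check of them. At the Dbf4 site the log2 ratio of depth, quiescent over proliferative in SCC1, was -1.61, and at the Rrm1 site it was -2.40. The median over the 356 sites listed in both SCC1 libraries was -0.35. For the whole genes, the authors' deposited table gives -2.09 for Dbf4 and -2.45 for Rrm1 in the same tumour.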

How the data were processed

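RNA-seq was made from 3 sorted populations of 2 tumours. The authors' deposited table holds log2 ratios between populations of a tumour. TopHat2 2.0.9, Cufflinks 2.2.0 and Cuffdiff 2.2.0 with mm10 are named for it in the submitters' processing notes, which name mm9 too for the double negative libraries. How libraries were scaled to each other is not stated. ATAC peaks and Smad2/3 sites were deposited as positions without a score, and Bowtie and Picard 1.88 are named in the same notes. The copy number table gives whole copies as a deposited score, with a p-value per region by the authors. The mutation table gives the count of reads at a site and the alternative base's percent of them, both deposited by the authors.

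The samples of a group are 1 per tumour, and members were described by sign in both tumours, by medians and by ranges, beside all genes of the table, with no test. The 48 members and the lists were chosen with earlier results of these data known. All 6 ratios were given for the lowest and highest member of each role by mean quiescent over proliferative ratio, and for members with a quiescent over double negative ratio of 1 sign in both tumours. Promoters were to be shown for up to 4 of the lowest members with an E2F word, here among those with the word outside the gene span. Only 4 members met that rule, so the ratio made no selection. By mean quiescent over proliferative ratio, Uhrf1 (-3.06), Cdc6 (-2.56) and Pola1 (-2.29) were lower than each gene shown. They were left out, while Gins3 (-1.14) and Rfc3 (-0.88) were shown. Gene positions came from RefSeq GRCm38.p6, the assembly that mm10 names, with 1492 genes matched by symbol and 108 by synonym. Peaks and sites were counted with 1 bp of overlap within 10 kb of the gene. Intervals are exact Clopper-Pearson at 95%. Python 3.11.15, pandas 2.3.3 and scipy 1.17.1 were used, and the steps were tested on simulated data. Other call rules, centring, windows and leaving out each tumour were tried as alternatives.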

Additional observations from a re-analysis of the deposited data

Results flagged for a closer look

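The order of quiescent and double negative cells was opposite in the tumours for the replication and nucleotide synthesis genes as a list and for many of its genes. The median log2 ratio of the 45 members, quiescent over double negative, lay 0.84 higher in SCC2 than in SCC1 in the authors' deposited table, with signs of -0.30 in SCC1 and 0.54 in SCC2. For mitosis genes the same gap was 2.30, for fibroblast markers 5.80, for immune markers 3.88 and for the 3 keratinocyte markers 1.58, in the authors' deposited table. Quiescent over proliferative medians of opposite sign were found for immune markers, with a gap of 3.29, and for the keratinocyte markers, with a gap of 4.00, in the authors' deposited table. That keratinocyte gap sets different genes against each other, Epcam in SCC1 (-3.21) and Krt16 in SCC2 (0.79). Epcam itself was negative in both tumours there. Quiescent over double negative, Krt16 was negative in both tumours, at -0.30 in SCC1 and -0.08 in SCC2. With 1 library per population and tumour none of these differences was tested.

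Among the genes named by rule, the quiescent over double negative ratio was below 0 in SCC1 and above 0 in SCC2 for 12. The rule also names every member with the same sign in both tumours, so the other named genes had opposite signs by the rule. Their number is thus not a further observation. This order was found for 36 of all 45 members and for 40.8% of all genes of the table. For Orc6 the SCC1 ratio was only -0.003. The gap, SCC2 minus SCC1, was 0.42 for Orc6, 0.78 for Mcm7, 1.18 for Mcm3, 1.34 for Gins2, 1.47 for Mcm10, 1.03 for Prim2 and 1.26 for Pole in the authors' deposited table. It was 1.10 for Rpa2, 1.25 for Lig1, 1.85 for Rrm2, 1.86 for Uhrf1 and 1.91 for Chaf1b in the authors' deposited table. These gaps were not tested either, and the part of the marker genes in them was not tested.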

How the results depend on the processing

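Of 47 alternatives over 11 results, 37 moved a count by less than 1.5 times, or a median by less than its spread between the tumours. Part of that number was fixed in advance. With a tumour left out, the mean of 2 medians cannot move by more than their spread, although its sign can change. A count of 45 in both tumours cannot change either, no member had a ratio at the limit of 12, and a wider window cannot lose a peak. The 45 members lower than proliferative cells stayed at 31 to 45 in quiescent and 39 to 45 in double negative cells. Members below double negative cells in quiescent ones numbered 3, against 1 at a log2 ratio of -0.5 or lower, 0 at -1 or lower, and 4 to 39 with a tumour left out. The mean of the 2 tumours' medians for that ratio, 0.12, ran from -0.30 without SCC2 to 0.54 without SCC1, so its direction rests on the tumour. Centred on the table's median, the double negative over proliferative median was -1.44 in place of -1.79. Smad2/3 sites were counted at 11 members within 10 kb and at 6 inside the gene. Gains, 45 over members and tumours, numbered 22 to 23 with a tumour left out (alternatives not planned beforehand). E2F words were in 15 members, in 9 before the start (chosen after seeing the data) and in 6 within 150 bases before it. Apart from the centring, these alternatives count under a narrower rule or window or in 1 tumour; the cause of the opposite signs was not tested.

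No paired analysis was possible because the results are counts and medians that come from no test. The ratios themselves are differences within a tumour, and a fit over the 2 tumours was not run. The depth behind the ratios is unknown, and 1 library per population and tumour gives no spread within a tumour.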
